A study of Tachysurus fulvidraco x Tachysurus vachelli with 6 samples.

Results

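The genes described here encode proteins of vesicle traffic and of the endosome and lysosome system in the skin of juvenile hybrid yellow catfish (Tachysurus fulvidraco♀ × P. vachellii♂). A gene was taken as a member when its protein description named a Rab GTPase, a sorting nexin, a vesicle, a vacuolar protein sorting subunit, a syntaxin, coatomer, the exocyst, the lysosome or a trafficking protein, and did not name a kinase, a zinc finger, ubiquitin or a kinesin. This rule found 29 of the 2451 complete genes of the table used here, and the second set of words removed 0 genes. No description named coatomer. The counts in the table came to 12.0 to 12.5% of each library's mapped reads, so it covers only part of the genes. Family sizes, ranks, absences and shares of all genes refer to this table. By description the 29 comprised 10 Rab GTPases, 4 exocyst genes, 2 genes of the TRAPP complex, 4 vacuolar protein sorting genes, 4 genes with syntaxin in the name, 1 vesicle-associated membrane protein, 2 sorting nexins and 2 lysosomal membrane proteins. Of these, 11 are named only by a LOC number, and 4 carry a description matched from another species (channel catfish for rab27a, rab41 and LOC113634056, a pigeon for LOC113634156).

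The transport group comprised 3 libraries of skin from fish that were starved, sealed in bags with water and oxygen and shaken for 16 h. The control group comprised 3 libraries from fish of the recirculating system that were not transported. The study does not say whether the control fish were also starved. The study calls the libraries of a group biological replicates, and the sources used here do not say how many fish went into each. The identifiers in the table are those of T. fulvidraco, the mother species of the hybrid, and the alleles of the parents were not separated.

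Membrane traffic moves proteins between compartments in small vesicles. Rab GTPases mark each membrane and recruit tethers, such as the exocyst at the plasma membrane and TRAPP and GARP at the Golgi, which hold a vesicle at its target. SNARE proteins, among them the syntaxins and the VAMP proteins, then fuse the membranes, while sorting nexins and the ESCRT complexes sort cargo on endosomes and the lysosome degrades it. In fish skin, mucous cells release mucus by exocytosis, and pigment cells move melanosomes, a kind of lysosome-related organelle. In mammals RAB27A is known as the Rab of melanosomes and of many secretory granules.

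For each gene the table holds read counts and FPKM (fragments per kilobase of transcript, scaled to the mapped reads of the library, so a level per length). The counts summed to 3726582 to 4487002 in the transport libraries and 3632651 to 4430981 in the control libraries. Control replicate 1 stood apart from the other 5 libraries. Its TMM factor, the scaling that edgeR estimates from the bulk of the genes, was 0.712, against 1.05 to 1.17 in the transport libraries and 0.968 and 1.04 in control replicates 2 and 3. The 6 skeletal muscle genes in the table summed to FPKM of 2453, 4434 and 3257 in transport replicates 1, 2 and 3, and 11057, 6562 and 2259 in control replicates 1, 2 and 3. The 4 genes of the epidermis (envoplakin, plakophilin-3-like and 2 claudins) summed to 40.2 to 51.0 in the transport libraries and 12.2 to 25.4 in the control libraries, the 4 mucous cell genes to 119 to 205 and 76.9 to 227, the 2 pigment cell genes (mlph and tyrp1) to 1.55 to 3.22 and 3.61 to 7.98, and the 2 collagen genes to 25.5 to 33.1 and 27.1 to 42.6. The sums hide differences between genes. Of the 3 epidermis genes tested, 1 was higher after transport without overlap of the libraries, and 1 of the 4 listed was highest in control replicate 1. Without overlap, 2 of the 4 mucous cell genes were higher, 1 of the 2 pigment cell genes was lower and 0 of the 6 muscle genes were either. Over all genes tested 24.1% were higher and 3.70% lower without overlap. Of the leukocyte list, 0 of 5 genes reached the level needed for testing, with sums of 0.778 to 1.56 and 0.599 to 1.18. No listed marker was at 0 in all libraries, and the search words for keratins and erythrocyte markers gave no gene for the lists in this partial table. The part of these markers in the results below was not tested. In whole skin, fewer cells of a type and less RNA per cell cannot be told apart.

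None of the 27 trafficking genes tested passed correction over all genes in edgeR's or limma's test, and 3 did in DESeq2. edgeR's quasi-likelihood test called 0 higher and 0 lower at an adjusted p under 0.05, where 0.370% and 0.247% of the 1620 genes tested were called higher and lower. limma also called 0, beside 0.617% and 0.123% of all genes, and DESeq2 called 0 higher and 3 lower, beside 4.38% and 5.12%. Before adjustment, edgeR's p was under 0.05 for 2 members that were higher and 3 that were lower, which is 7.41% and 11.1% of the members. The same shares over all genes tested were 7.72% and 9.14%, so the members' counts stood near the background. The 3 lower genes were rab3c, the exocyst component 3-like gene LOC113636117 and lamp2, which are also the 3 called by DESeq2. The 2 higher genes were the Rab-1A-like gene LOC113636411 and exoc6b. The smallest of these adjusted p-values in edgeR's test was 0.140, for rab3c. The 5 genes became 3, all lower, without transport replicate 1 or transport replicate 3, and 10 (6 higher, 4 lower) without control replicate 3. Without control replicate 1 there were 0 higher and 4 lower.

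Most members had small fold changes. The median log2 fold change (transport over control) was 0.08 for the 27 members, with a range of -1.52 to 0.65, and -0.02 for all genes tested. It was within 0.5 of 0 for 22 of the 27 members, or 81.5%, against 69.3% of all genes. The members were also more abundant than most genes, with a median FPKM of 8.58 against 5.28, and their median standard error was 0.18 against 0.26. These figures are descriptions, and nothing particular to the members was tested from them.

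**Figure D1:**
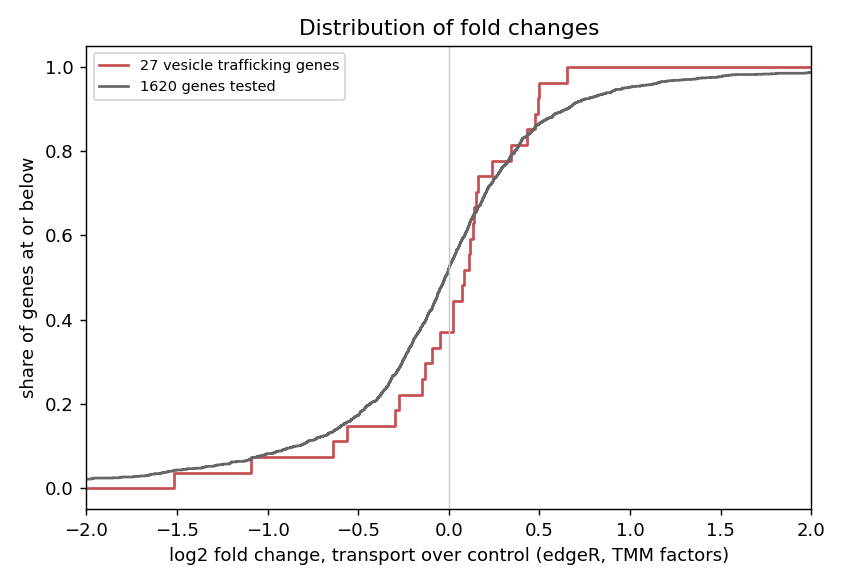
Cumulative share of genes (y axis) at or below each log2 fold change of transport over control (x axis) for the 27 trafficking genes tested and for all 1620 genes tested, from edgeR with TMM factors. The axis stops at 2 on both sides, and the members end at -1.52 and 0.65.

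The number of members with higher levels after transport depended on whether the libraries were scaled by TMM factors. With these factors 17 of the 27 log2 fold changes were above 0 (48.0% of all genes). Without them 22 were above 0 (73.8% of all genes), the median of the members was 0.37 and that of all genes 0.27. As deposited, the FPKM of 9 members were higher in every transport library than in every control library, and those of 2 were lower, where 24.1% and 3.70% of all genes tested were so. After division by the TMM factor these counts were 5 and 4, beside 13.0% and 10.9%. The FPKM of 19 of the 27 members were lowest in control replicate 1, as were those of 63.2% of all genes, and 9 and 28.7% after division by the factor. The summed FPKM of all 29 members was 402, 351 and 379 in transport replicates 1, 2 and 3, and 230, 311 and 351 in control replicates 1, 2 and 3. Divided by the factor the sums were 342, 333 and 336, against 322, 322 and 337, so the groups overlapped.

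**Figure D2:**
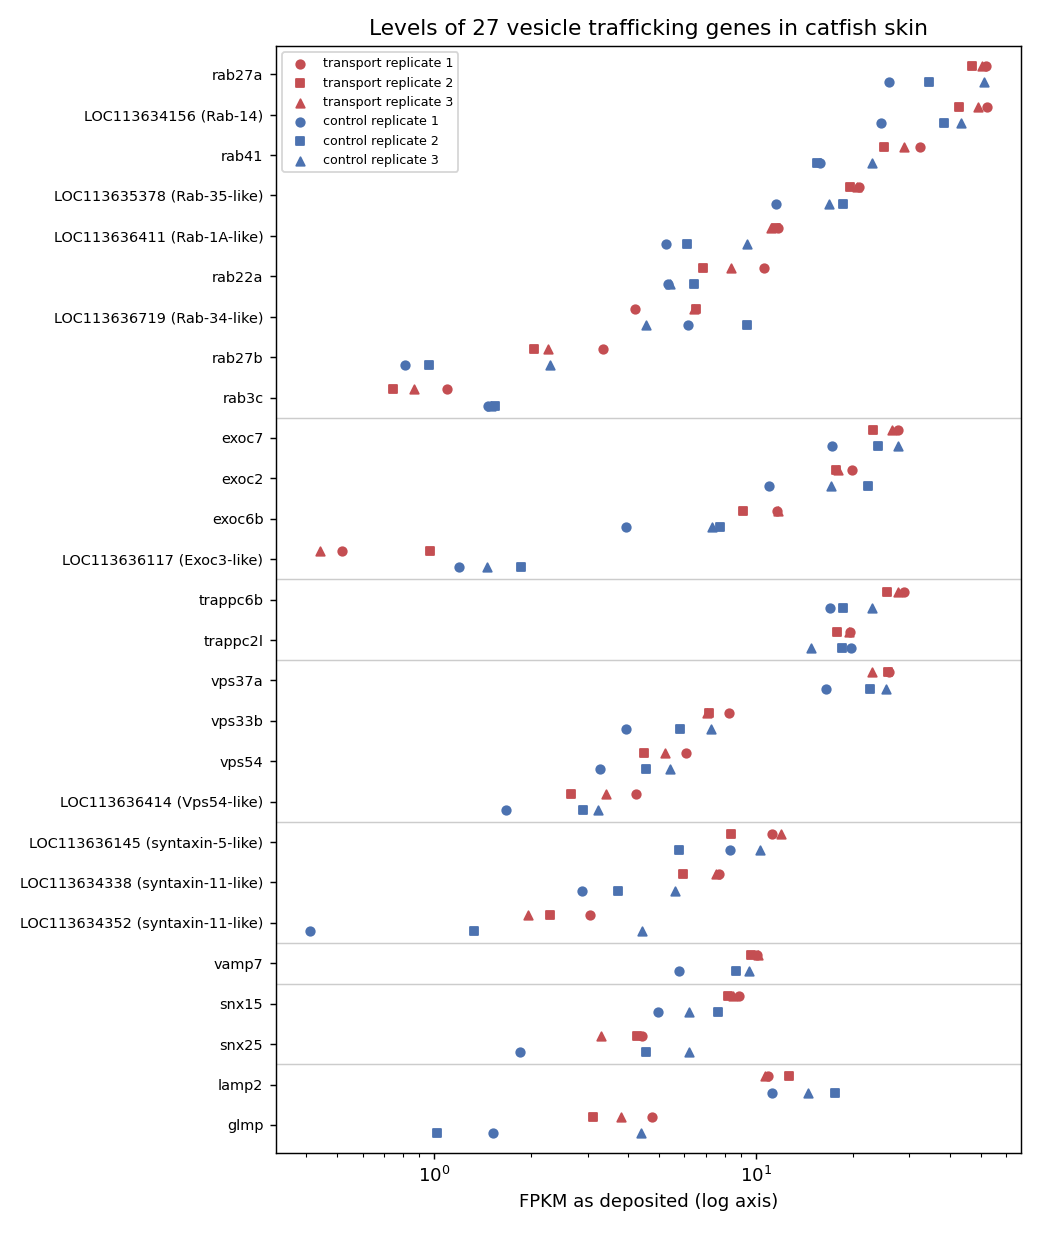
FPKM as deposited (x axis, log scale) of the 27 trafficking genes tested in each library, with transport replicates in red above control replicates in blue and lines between the families. For most genes control replicate 1 (blue circle) is the lowest point, as counted for 19 of the 27.

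The Rab GTPases spanned the widest range of levels. The most abundant of those in the table was rab27a, at FPKM of 52.0, 46.8 and 50.5 in transport replicates 1, 2 and 3, and 25.9, 34.6 and 51.0 in control replicates 1, 2 and 3. Control replicate 3 lay within the transport range, so the groups overlapped, and the log2 fold change was 0.14 (standard error, SE, 0.16). LOC113634156, described as Rab-14, a GTPase of traffic between the Golgi and endosomes, was at 52.1, 42.8 and 49.1 in the transport libraries and 24.5, 38.4 and 43.3 in the control libraries. Its mean was 48.0 ± 4.78 (SD, n = 3) after transport and 35.4 ± 9.75 (SD, n = 3) in control skin. Both means lay within 1 SD of those of rab27a, but the 2 genes share libraries, so this SD is not the spread of their difference. Library by library, LOC113634156 was above rab27a in transport replicate 1 and control replicate 2 and below it in the others. A difference in level between them was not tested. Below them lay rab41, a Golgi GTPase, at a mean FPKM of 23.4 over the 6 libraries, and LOC113635378 (Rab-35-like, endocytic recycling) at 18.0. Next came LOC113636411 at 9.20, rab22a (early endosome) at 7.16 and LOC113636719 (Rab-34-like) at 6.19, and last rab27b at 1.96 and rab3c at 1.21. The Rab-37-like gene LOC113634056 had 0, 8 and 0 reads in the transport libraries and 0, 8 and 0 in the control libraries, and was not tested.

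The gene rab3c encodes a Rab known in mammals from the regulated exocytosis of neurons and endocrine cells. It lies on scaffold NW_020848146.1 from 636037 to 644145 on the plus strand, and its FPKM was 1.10, 0.748 and 0.866 in transport replicates 1, 2 and 3, and 1.47, 1.55 and 1.50 in control replicates 1, 2 and 3. All 3 transport values lay below all 3 control values, also after division by the TMM factor. Its log2 fold change was -1.09 (SE 0.26, 95% interval -1.73 to -0.45), with an unadjusted p of 0.00535 and an adjusted p of 0.140 in edgeR's test. DESeq2 gave an adjusted p of 0.00351 and limma one of 0.285, and the range over all alternatives was 0.00351 to 0.504. The count behind these values was 175 to 234 reads in the transport libraries and 324 to 384 in the control libraries. Leaving out a library gave log2 fold changes of -1.22 to -0.90. Without TMM factors the estimate was -0.74 (unadjusted p = 0.0411 in edgeR's test), and limma on log2(FPKM + 0.5) gave -0.52.

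LOC113636411, the Rab-1A-like gene, belongs to the Rabs that carry vesicles from the endoplasmic reticulum to the Golgi. It lies on scaffold NW_020848203.1 from 144364 to 177824 on the minus strand, and its FPKM was 11.7, 11.6 and 11.1 in transport replicates 1, 2 and 3, and 5.28, 6.12 and 9.39 in control replicates 1, 2 and 3. The transport libraries were close to each other and above all 3 control libraries, which still held after division by the TMM factor (9.90 to 11.0 against 6.33 to 9.00). The log2 fold change was 0.43 (SE 0.16), with an unadjusted p of 0.0348 and an adjusted p of 0.252 in edgeR's test. The unadjusted p was 0.0122 without control replicate 3 and 0.0620 to 0.0875 without any of the other libraries.

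Of the other Rabs, 0 reached an unadjusted p under 0.05. The FPKM of rab41 was 32.3, 25.0 and 28.8 in the transport libraries and 15.9, 15.5 and 22.9 in the control libraries, without overlap, and its log2 fold change was 0.34 (SE 0.18, adjusted p = 0.372 in edgeR's test). The paralog rab27b, which in mammals acts beside RAB27A in secretory granules, was at 3.36, 2.05 and 2.27 in the transport libraries and 0.814, 0.967 and 2.28 in the control libraries. Control replicate 3 stood with the transport libraries, and the log2 fold change of rab27b was 0.65 (SE 0.36), the highest among the members. Its FPKM was 0.0438 to 0.0646 of that of rab27a in the transport libraries and 0.0280 to 0.0448 in the control libraries. The Rab-34-like gene, whose mammalian counterpart works in cilium formation and lysosome positioning, had the other negative estimate of the family at -0.56 (SE 0.36). For LOC113634156, LOC113635378 and rab22a the log2 fold changes were 0.15, 0.08 and 0.24, each with a 95% interval that included 0.

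**Figure D3:**
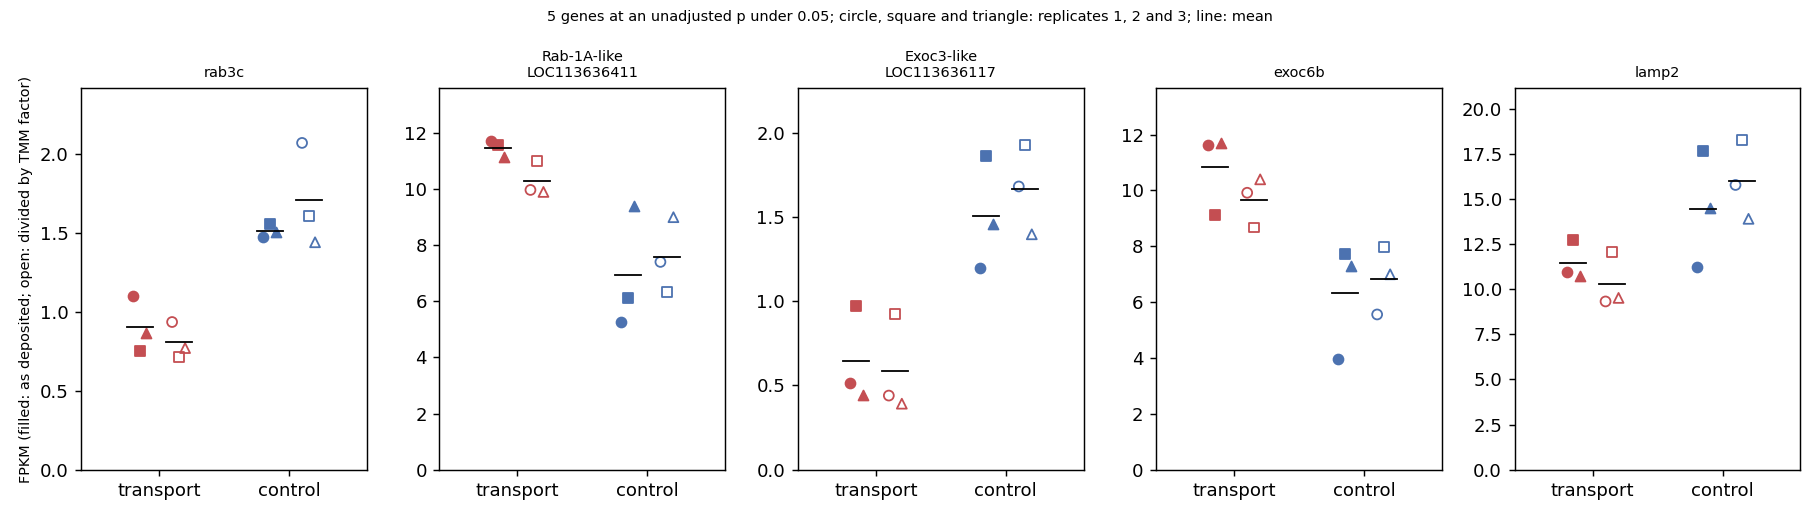
FPKM of the 5 trafficking genes at an unadjusted p under 0.05 (y axes start at 0) in transport libraries (red) and control libraries (blue), as deposited (filled) and divided by the TMM factor (open), with a line at each mean. The transport points lie below the control points for rab3c and LOC113636117 and above them for LOC113636411 and exoc6b on both scales, and for lamp2 they separate only after the division.

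The exocyst is an octameric tether of secretory vesicles at the plasma membrane, and the table held exoc2 (Sec5 in yeast), exoc7 (Exo70), exoc6b (a Sec15 homolog, which binds Rab11 in mammals) and LOC113636117, described as exocyst complex component 3-like. None of the 4 passed adjustment in edgeR's test. Before adjustment 1 was higher and 1 was lower at a p under 0.05, where 7.72% and 9.14% of all genes tested were so. The gene exoc6b, on scaffold NW_020848182.1 from 2094272 to 2182490, had FPKM of 11.6, 9.13 and 11.7 in transport replicates 1, 2 and 3, and 3.96, 7.72 and 7.30 in control replicates 1, 2 and 3. Every transport library was above every control library, and the log2 fold change was 0.49 (SE 0.16, unadjusted p = 0.0199, adjusted p = 0.210 in edgeR's test). The unadjusted p was 0.0510 to 0.0675 without control replicate 1, transport replicate 1 or transport replicate 3, and 0.0120 to 0.0378 without each of the others.

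LOC113636117, on scaffold NW_020848201.1 from 1969610 to 1983565, was the member with the most negative fold change. Its FPKM was 0.516, 0.974 and 0.441 in transport replicates 1, 2 and 3, and 1.20, 1.86 and 1.46 in control replicates 1, 2 and 3, so the groups did not overlap. The log2 fold change was -1.52 (SE 0.41, 95% interval -2.51 to -0.52), with an unadjusted p of 0.00927 and an adjusted p of 0.173 in edgeR's test. DESeq2 gave an adjusted p of 0.0103 and limma one of 0.229, with 0.0103 to 0.504 as the range over all alternatives. Without TMM factors the log2 fold change was -1.23 (unadjusted p = 0.0219 in edgeR's test), and limma on log2(FPKM + 0.5) gave -0.83. The gene is of low abundance, with 76 to 155 reads in the transport libraries and 213 to 266 in the control libraries.

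The abundant subunits exoc7 and exoc2 had estimates near 0. The FPKM of exoc7 was 27.6, 23.1 and 26.4 in the transport libraries and 17.2, 23.9 and 27.6 in the control libraries, with a log2 fold change of -0.13 (95% interval -0.41 to 0.14). After division by the TMM factor it was 21.9 to 23.5 against 24.1 to 26.4, without overlap. That of exoc2 was 19.8, 17.8 and 18.0 against 11.0, 22.3 and 17.1, with a log2 fold change of -0.15 (95% interval -0.57 to 0.28). Without TMM factors both estimates were above 0, at 0.17 for exoc7 and 0.14 for exoc2. A ratio of genes within a library does not depend on the scaling between libraries. The ratio of exoc6b to exoc2 was 0.587, 0.514 and 0.652 in transport replicates 1, 2 and 3, and 0.361, 0.346 and 0.427 in control replicates 1, 2 and 3. The ratio of LOC113636117 to exoc2 was 0.0260, 0.0548 and 0.0245 in the transport libraries and 0.109, 0.0835 and 0.0853 in the control libraries. Neither ratio overlapped between the groups, while that of exoc7 to exoc2 did, at 1.30 to 1.47 and 1.07 to 1.61. These ratios were chosen after the values had been seen and are given without a test.

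**Figure D4:**
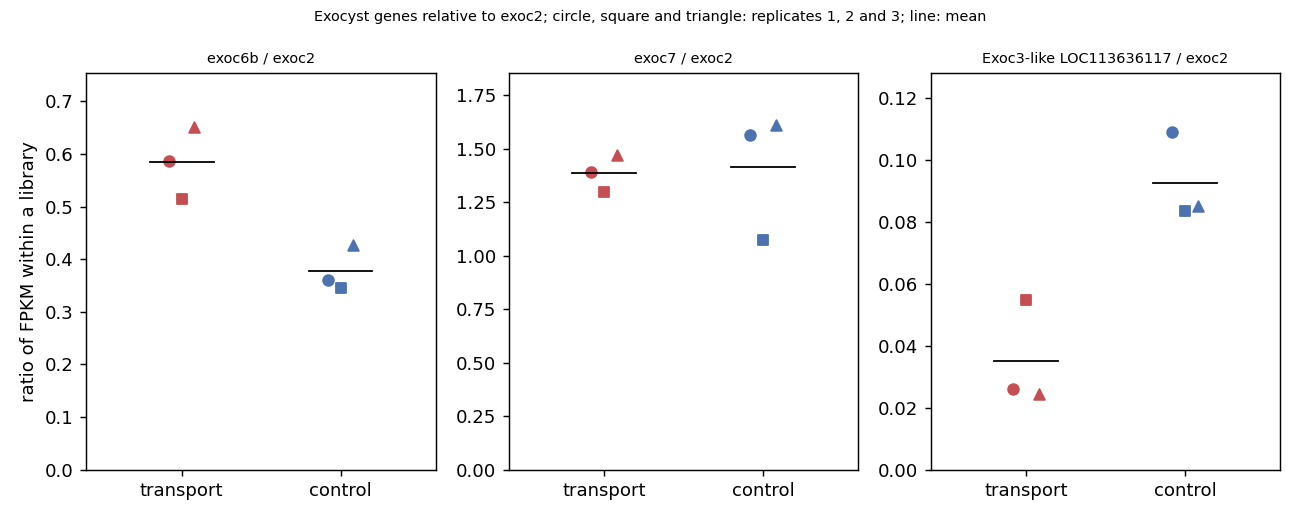
Ratio of the FPKM of 3 exocyst genes to that of exoc2 within each library (y axes start at 0), with transport libraries in red, control libraries in blue and a line at the mean. For exoc6b the transport ratios (0.514 to 0.652) lie above the control ratios (0.346 to 0.427), for LOC113636117 they lie below, and for exoc7 they overlap.

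The tethers of the Golgi had small fold changes. TRAPP activates Rab1 in the early secretory pathway, and its subunit gene trappc6b had FPKM of 29.0, 25.5 and 27.6 in transport replicates 1, 2 and 3, and 17.0, 18.7 and 23.0 in control replicates 1, 2 and 3. The groups did not overlap, also after division by the TMM factor. The log2 fold change was 0.16 with these factors (SE 0.14, adjusted p = 0.573 in edgeR's test) and 0.48 without them. The other subunit gene, trappc2l, was at 17.9 to 19.6 in the transport libraries and 14.9 to 19.7 in the control libraries, which held both the highest and the lowest value. Its log2 fold change was -0.28 (SE 0.27), and 0.04 without control replicate 1.

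Both vps54 and its neighbour LOC113636414, described as Vps54-like, are annotated to GARP, which tethers vesicles from endosomes at the Golgi. They lie on the minus strand of scaffold NW_020848203.1, at 86958 to 99419 and 102525 to 117892, with 3105 bases between them. The FPKM of vps54 was 6.07, 4.49 and 5.22 in the transport libraries and 3.27, 4.57 and 5.42 in the control libraries. That of LOC113636414 was 4.23, 2.66 and 3.43, against 1.67, 2.89 and 3.23. The libraries followed nearly the same order in both genes, with LOC113636414 at 0.593 to 0.697 of vps54 in the transport libraries and 0.511 to 0.633 in the control libraries. Such neighbours can share reads, which would make their separate values uncertain, and this was not tested. The log2 fold changes were -0.05 (SE 0.15) and 0.12 (SE 0.23).

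The remaining vacuolar protein sorting genes were also close to 0. The gene vps37a, a subunit of ESCRT-I, which sorts ubiquitinated cargo on endosomes, was at 22.9 to 25.9 in the transport libraries and 16.5 to 25.4 in the control libraries, with a log2 fold change of -0.09 (95% interval -0.38 to 0.20). The gene vps33b, whose product regulates fusion at late endosomes and is needed for platelet granules in mammals, was at 7.07 to 8.23 and 3.94 to 7.24, with a log2 fold change of 0.11 (95% interval -0.22 to 0.45).

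The 2 syntaxin-11-like genes, neighbours on opposite strands, behaved differently between libraries. In mammals syntaxin-11 is a SNARE of the killing granules of lymphocytes. LOC113634338, on scaffold NW_020848147.1 from 349685 to 351802, had FPKM of 7.67, 5.93 and 7.54 in transport replicates 1, 2 and 3, and 2.89, 3.73 and 5.62 in control replicates 1, 2 and 3. The groups did not overlap, with a log2 fold change of 0.50 (SE 0.22, unadjusted p = 0.0650 and adjusted p = 0.320 in edgeR's test). LOC113634352, at 345037 to 348519 on the same scaffold, was at 3.06, 2.30 and 1.96 in the transport libraries and 0.411, 1.33 and 4.43 in the control libraries. Here the control libraries spanned both the lowest and the highest value, and the log2 fold change of 0.08 had a standard error of 0.67, the largest among the members. It was 1.15 without control replicate 3 and -0.35 without control replicate 1. Of the 2 genes LOC113634338 had the higher FPKM in each library, at 2.51 to 3.84 times LOC113634352 in the transport libraries and 1.27 to 7.03 times in the control libraries.

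The other SNARE genes had estimates of 0.02. The FPKM of vamp7, a SNARE of late endosomes and lysosomes, was 10.1, 9.66 and 10.2 in transport replicates 1, 2 and 3, and 5.75, 8.70 and 9.53 in control replicates 1, 2 and 3. As deposited every transport library was above the control libraries, and after division by the TMM factor they overlapped, at 8.56 to 9.18 and 8.08 to 9.14. The log2 fold change was 0.02 (95% interval -0.26 to 0.31). The syntaxin-5-like gene LOC113636145, a SNARE of the Golgi, was at 8.36 to 12.0 and 5.75 to 10.3, with a log2 fold change of 0.02 (95% interval -0.64 to 0.69). LOC113635474 encodes a syntaxin-binding protein 4-like protein rather than a syntaxin. Its FPKM was 0.123 to 0.428 in the transport libraries and 0.396 to 0.415 in the control libraries, under the level needed for testing.

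Sorting nexins bind phosphoinositides on endosomes. The FPKM of snx15 was 8.89, 8.22 and 8.50 in transport replicates 1, 2 and 3, and 4.96, 7.63 and 6.19 in control replicates 1, 2 and 3, with a log2 fold change of 0.13 (SE 0.16). The groups did not overlap as deposited and overlapped after division by the TMM factor. That of snx25 was 4.42, 4.28 and 3.31 against 1.85, 4.54 and 6.22, with the transport libraries inside the control range and a log2 fold change of -0.30 (SE 0.30).

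The lysosomal membrane gene lamp2 had a lower estimate after transport. LAMP2 is a main glycoprotein of the lysosomal membrane and, in mammals, takes part in autophagy. The gene lies on scaffold NW_020848201.1 from 10620889 to 10627191 on the minus strand, and its FPKM was 10.9, 12.7 and 10.7 in transport replicates 1, 2 and 3, and 11.2, 17.7 and 14.5 in control replicates 1, 2 and 3. As deposited control replicate 1 lay within the transport range. Divided by the TMM factor the values were 9.32, 12.1 and 9.52 against 15.8, 18.3 and 13.9, without overlap. Its log2 fold change was -0.64 (SE 0.17, 95% interval -1.04 to -0.24), with an unadjusted p of 0.00743 and an adjusted p of 0.164 in edgeR's test. DESeq2 gave an adjusted p of 0.0187 and limma one of 0.498, with 0.0187 to 0.504 over all alternatives. Without TMM factors the log2 fold change was -0.34 (unadjusted p = 0.190 in edgeR's test).

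The other lysosomal membrane gene, glmp, had an estimate opposite in sign to that of lamp2, but a difference between the 2 was not tested. The FPKM of glmp was 4.75, 3.11 and 3.80 in the transport libraries and 1.53, 1.02 and 4.41 in the control libraries, where replicate 3 was as high as the transport libraries. The log2 fold change was 0.48 with a standard error of 0.50, and leaving out a library gave 0.11 (without control replicate 2) to 1.08 (without control replicate 3). For rab27b, LOC113634352 and glmp alike, control replicate 3 was at or above the level of most transport libraries and the other control libraries were below all of them.

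**Figure D5:**
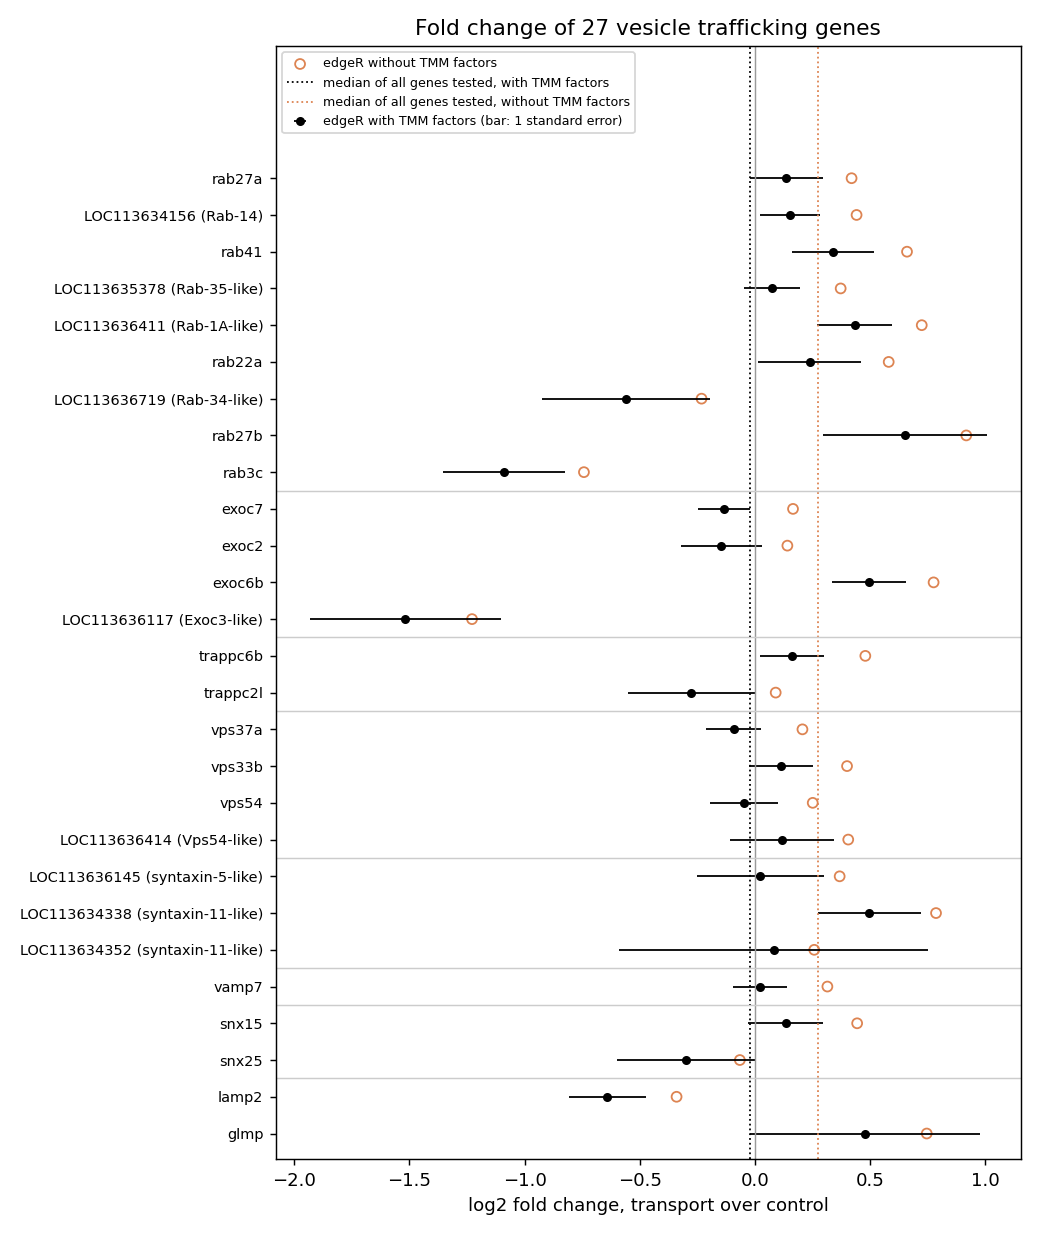
Log2 fold change of transport over control (x axis) for the 27 trafficking genes tested, from edgeR with TMM factors (black, bar of 1 standard error) and without them (open orange), with dotted lines at the medians of all genes tested (-0.02 and 0.27). Each orange point lies to the right of its black point, and rab3c, LOC113636117, lamp2 and LOC113636719 are the members below -0.5 with TMM factors.

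Most members varied more between control libraries than between transport libraries, as did most of all genes tested, so this was not particular to the members. The standard deviation of log2(FPKM + 0.5) was larger in the control group for 24 of the 27 members tested, and for 83.0% of all genes, or for 22 and 72.2% after division by the TMM factor. The exceptions as deposited were rab3c, rab22a and LOC113636117. As deposited, the gene rab3c had the narrowest control group of the 27 members tested, with a standard deviation of 0.0286 on this scale. This did not hold after division by the TMM factor. The control values of rab3c then ran from 1.44 to 2.07, a wider spread in proportion than that of vps37a, at 23.2 to 24.4.

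The 29 genes were spread over 19 scaffolds, 4 of which held more than 1 member. Scaffold NW_020848201.1, which held 541 genes of the table, carried 6 (lamp2, rab41, snx25, vamp7, LOC113636117 and LOC113636145). On it rab41 and lamp2 lie on the same strand, at 10542654 to 10550180 and 10620889 to 10627191, with log2 fold changes of 0.34 and -0.64. Scaffold NW_020848147.1 carried exoc2 and both syntaxin-11-like genes, and NW_020848203.1 the Vps54 pair and the Rab-1A-like gene. By annotation, 8 members share GTP binding, 4 the exocyst, 4 the KEGG pathway of SNARE interactions in vesicular transport and 3 endocytosis, while rab27a and rab27b share melanosome transport.

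Descriptions outside the rule were also searched for adaptors, coats, Arf proteins, dynamins, golgins, V-ATPase subunits, cathepsins, annexins and Rab regulators. Synaptotagmins, arrestins and flotillins were included too. The search found 42 genes, of which 32 were tested. edgeR, DESeq2 and limma each called 0 of these, where DESeq2 called 4.38% of all genes higher and 5.12% lower. Before adjustment edgeR's p was under 0.05 for 2 higher and 0 lower genes, beside 7.72% and 9.14% of all genes. Their median log2 fold change was 0.03. The 2 were LOC113636267, the medium subunit of the AP-3 adaptor, which sorts cargo to lysosomes and melanosomes, and golga2, a structural golgin of the Golgi. LOC113636267 had FPKM of 12.7, 10.9 and 12.3 in transport replicates 1, 2 and 3, and 5.21, 8.56 and 7.85 in control replicates 1, 2 and 3 (log2 fold change 0.43, SE 0.14, adjusted p = 0.210 in edgeR's test). For golga2 these were 7.04, 4.46 and 6.23 against 2.46, 3.25 and 4.35 (log2 fold change 0.52, SE 0.19, adjusted p = 0.241 in edgeR's test). In both genes the 2 groups did not overlap, as deposited or after division by the TMM factor. Of the 32 genes, 5 were higher and 0 lower without overlap as deposited, beside 24.1% and 3.70% of all genes tested. After the division 3 were higher and 1 lower, beside 13.0% and 10.9%. The lower gene was LOC113635045, described as a mitochondrial dynamin-like protein, so the word search was not limited to vesicle traffic.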

How the data were processed

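Per the labels and the study's methods, poly(A) RNA of skin was sequenced as paired reads. The authors filtered the reads (Cutadapt), mapped them (HISAT) and assembled transcripts (StringTie). The study's methods name a human reference and its results a yellow catfish genome; the identifiers and scaffolds in the table are those of T. fulvidraco. No build is named, and positions are given as in the table. The sources used here do not give versions or strandedness. The deposited counts are whole reads per gene, not normalized. The deposited FPKM were made by the authors with StringTie. Of 2452 rows, 1 incomplete row was left out, as were 12 value columns of other samples. The counts in the table came to 12.0 to 12.5% of each library's mapped reads, so the summed counts and the TMM factors rest on part of the genes. The test took the 1620 genes whose FPKM averaged 0.5 or more, 27 of the 29 members among them.

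The quasi-likelihood test of edgeR 4.0.16 (R 4.3.3) took the mapped reads the study states as library sizes, TMM factors and the condition as the only term, with Benjamini-Hochberg adjustment over all genes tested. Standard errors came from the fold change and its F statistic, and 95% intervals from the same test's degrees of freedom. DESeq2 1.42.0 and limma 3.58.1 on log2(FPKM + 0.5) were alternatives. FPKM divided by TMM factors were added after seeing the data. The fit was also run on counts simulated from its own means and trended dispersions. That is a check of the code and cannot show how well the test suits these libraries. Replicates of a group were checked for duplicates, and the chi-square per gene was 48.3 to 755, far above sampling noise. Figures were drawn with matplotlib.

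The members and lists were chosen with earlier results of these data known. The marker lists were trimmed after seeing the descriptions, to leave out light chain kinases, fibronectin type III proteins, domain-containing proteins and leukocyte receptors. Members at an unadjusted p under 0.05, called by any tool, or highest in level or smallest in p within a family were to be named with full values; the others were added afterwards so that each member is accounted for.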

Additional observations from a re-analysis of the deposited data

How the results depend on the processing

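The count of trafficking genes at an adjusted p under 0.05 was 0 in edgeR's test and stayed 0 under each alternative except DESeq2, which called 3, all lower; the cause was not tested. Over all genes the count was 10 (6 higher, 4 lower), 154 in DESeq2 and 0 with a replicate block. Leaving out a library gave 0 (without transport replicate 1 or 3) to 65 genes over all (without control replicate 3), 0 to 0 members at an adjusted p under 0.05, and 3 to 10 members at an unadjusted p under 0.05 (5 with all libraries). The 10, of which 6 were higher and 4 lower, came without control replicate 3, and 3, all lower, without transport replicate 1 or 3. Of all 1620 genes tested, 151 (without transport replicate 3) to 401 (without control replicate 3) were at an unadjusted p under 0.05. With all libraries there were 273. The replicate numbers showed no sign of pairing the libraries (r of same-numbered deviations -0.09, 0.08 and 0.08, and of differently numbered ones -0.16 to 0.12). With 3 libraries in each group this check cannot exclude a pairing. With the block 4 members were at an unadjusted p under 0.05, and 215 of all genes, and it reversed no member.

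Members whose libraries did not overlap numbered 9 higher and 2 lower as deposited, and 5 and 4 after division by the TMM factor. The shares over all genes tested were 24.1% and 3.70% as deposited, and 13.0% and 10.9% after the division. Without TMM factors 11 genes were called higher and 0 lower, and 6 members (4 higher, 2 lower) had a p under 0.05 before adjustment. So had 291 of all 1620 genes tested. The estimates of trappc2l, exoc2, exoc7, vps37a and vps54 then turned positive, at 0.091, 0.14, 0.17, 0.21 and 0.25, as the median of all genes moved by -0.30 with these factors. limma, which carries no such factors, gave 0.11, 0.20, 0.19, 0.23 and 0.27 for the same genes and 0.080 for snx25 with a pseudocount of 0.1. With 0.5 it gave 0.11, 0.19, 0.19, 0.22, 0.24 and 0.057, and with 1 it gave 0.10, 0.18, 0.18, 0.22, 0.22 and 0.038. Leaving out a library turned the sign of some estimates, with ranges of -0.49 to 0.038 for trappc2l, -0.24 to 0.044 for exoc2, -0.13 to 0.029 for vps54, -0.35 to 1.15 for LOC113634352, -0.22 to 0.26 for LOC113636145, -0.021 to 0.25 for LOC113636414 and -0.0084 to 0.047 for vamp7. Of 486 estimates over 18 alternatives, 33 reversed, 3 became calls and 450 kept direction and side of the threshold. rab3c, LOC113636117, lamp2, exoc6b and LOC113636411 kept their direction under all 18. So did members with large p-values, among them rab22a, snx15, rab27a, vps33b and LOC113635378 (unadjusted p of 0.322 to 0.553 in edgeR's test). A kept direction was therefore not particular to the genes of small p.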
